A study of Homo sapiens with 18 samples.

Results

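The genes of the cell junctions and of apicobasal polarity were followed in 3 human lung cancer cell lines after stable knockdown of the kinase SYK. The set held 39 genes, matched by gene name among the 58302 genes listed for each line: 6 of the adherens junction, 11 of the desmosome, 12 of the tight junction, 4 around EPCAM and the protease matriptase, 5 polarity genes and the Rap1 exchange factor RAPGEF5. EBC-1 carries a MET amplification, and PC-9 and HCC827 carry an EGFR exon 19 deletion. Each line was sequenced as negative control cells (nc) and as cells with an shRNA against SYK brought in by lentivirus (shSYK), with 3 libraries in each of the 6 groups and 18 in all. A single shRNA clone was used, so effects of the knockdown and other effects of that clone cannot be told apart, and nothing in the labels says that the libraries of a group came from separate cultures, so p-values measure only the spread between these libraries. Levels are FPKM, fragments scaled by gene length and by a total per library whose definition is not given in the sources used here. Between 7920099 and 15729103 reads per library lay on genes. The total used for FPKM, divided by these reads, gave 0.8834 to 1.0719 over the 18 libraries. In EBC-1 the values were 0.9691 to 1.0077 in nc and 1.0344 to 1.0719 in shSYK cells. In HCC827 every shSYK library also lay above every nc library, and in PC-9 the groups overlapped.

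SYK itself, the targeted gene, was measured at 15.2, 13.1 and 14.4 FPKM in nc and 7.63, 7.25 and 7.41 FPKM in shSYK cells of EBC-1, at 7.31, 6.04 and 6.17 FPKM in nc and 2.28, 1.64 and 2.35 FPKM in shSYK cells of PC-9, and at 9.05, 8.45 and 9.74 FPKM in nc and 2.46, 3.16 and 3.36 FPKM in shSYK cells of HCC827. It fell in each line (adjusted p = 0.000271, 0.00733 and 0.000197, limma), and shSYK cells of EBC-1 kept the highest level. In PC-9 the adjusted p was 0.0648 without shSYK library 1. A few libraries stood apart from others of their group. They were nc library 1 of PC-9, whose reads gave a chi-square of 38.66 per degree of freedom against nc library 2, and nc library 2 and shSYK library 3 of EBC-1, at 8.35 to 12.18 against their group, while the closest replicates differed at 2.11. In PC-9, nc libraries 1 and 3 gave 14.31 and nc libraries 2 and 3 gave 9.47, so all its nc libraries lay apart from each other. Keratin genes that mark epithelial cells (KRT7, KRT8, KRT18 and KRT19) were high throughout, with a summed level of 1722 to 2028 FPKM in nc and 1233 to 1338 FPKM in shSYK cells of EBC-1, 3250 to 5707 and 3851 to 4343 FPKM in PC-9, and 4124 to 4591 and 3541 to 4226 FPKM in HCC827. Of 12 markers of leukocytes, fibroblasts and endothelium, PTPRC, CD3E, DCN, COL1A2, VWF and TEK stayed at or under 0.185 FPKM in every library. Others were higher. In PC-9, PECAM1 reached 14.4 FPKM, COL1A1 8.29 FPKM and ITGAM 3.39 FPKM. COL1A1 reached 2.475 FPKM in EBC-1 and 2.01 FPKM in HCC827, where CD14 reached 1.62 FPKM. The summed markers of each of these cell types reached at most 2.89 FPKM in EBC-1 and 2.11 FPKM in HCC827. In PC-9 they were 3.02 to 3.49 FPKM in nc and 3.42 to 3.99 FPKM in shSYK cells for leukocytes, 5.49 to 8.37 and 6.16 to 7.62 FPKM for fibroblasts, and 12.9 to 14.5 and 4.37 to 5.44 FPKM for endothelium. The last sum was mostly PECAM1, which fell by 1.27 ± 0.11 (SE) on the log2 scale, adjusted p = 0.00492. The summed squamous markers (KRT5, KRT6A, KRT14 and TP63) were 11.98 to 12.8 FPKM in nc and 2.06 to 3.95 FPKM in shSYK cells of HCC827, and the summed lung adenocarcinoma markers 140.1 to 143 FPKM and 85.7 to 95.1 FPKM there. Among these, KRT6A fell by 1.73, NAPSA by 0.85 and NKX2-1 by 0.33 on the log2 scale in HCC827, as did KRT19 by 0.43 (adjusted p = 0.000652, 0.000121, 0.0226 and 0.0115). KRT19 fell also in EBC-1, by 0.29 (adjusted p = 0.0426), as did KRT7 by 1.34 and KRT18 by 0.31 (adjusted p = 6.42e-05 and 0.00727). KRT8 was called in neither line, and KRT7 and KRT18 were not called in HCC827. In EBC-1 the squamous and the lung adenocarcinoma sums stayed at or under 0.962 FPKM. The part of all these markers in the junction results was not tested. In bulk RNA, fewer cells of a type and less RNA per cell cannot be told apart.

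Epithelial cells are held together by adherens junctions, in which classic cadherins bind across the gap between cells and are tied to actin through catenins. Desmosomes do the same for keratin filaments with desmosomal cadherins, plakoglobin, plakophilins and plakins, and tight junctions seal the space between cells with claudins and occludin on a scaffold of ZO proteins. Polarity complexes place these junctions at the border of the apical and the basolateral membrane, and loss of E-cadherin and of claudins is a classical mark of the epithelial-mesenchymal transition.

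In nc cells, 34 of the 39 genes had a median of at least 0.5 FPKM in each of the 3 lines. The highest median was in HCC827 for 14 of these, in EBC-1 for 12 and in PC-9 for 8, and for 13 of them the highest and lowest medians differed by less than 2-fold. The tables of the lines were made separately, so these levels are described without a test. CDH1, E-cadherin, stood at 144, 143 and 132 FPKM in HCC827, 126, 136 and 122 FPKM in EBC-1 and 42.7, 37.7 and 38.1 FPKM in PC-9. The ranges of HCC827 and EBC-1 overlapped, and PC-9 lay below both. CTNNA1, the alpha-catenin that links the cadherin complex to actin, had 6.05, 6.61 and 6.33 FPKM in PC-9 while EBC-1 had 54.1, 54.4 and 54.2 FPKM and HCC827 92.4, 87.5 and 87.7 FPKM, a ratio of 13.9 between the highest and the lowest median. CDH2, N-cadherin, was found at 9.95, 10.6 and 9.197 FPKM in EBC-1, while its highest nc value was 0.0387 FPKM in PC-9 and 0.0279 FPKM in HCC827. CLDN1, a barrier-forming claudin, was lowest in HCC827, with 34.2, 43.9 and 34.1 FPKM in EBC-1, 18.4, 18.6 and 18.6 in PC-9 and 3.701, 4.44 and 4.54 in HCC827, and none of these ranges overlapped. CLDN4 and JUP, by contrast, had overlapping ranges in the neighbouring lines of their order. DSG3, DSC3 and PKP1, the desmosomal genes of stratified epithelia, had a mean under 1 FPKM in every line and were not tested.

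**Figure D1:**
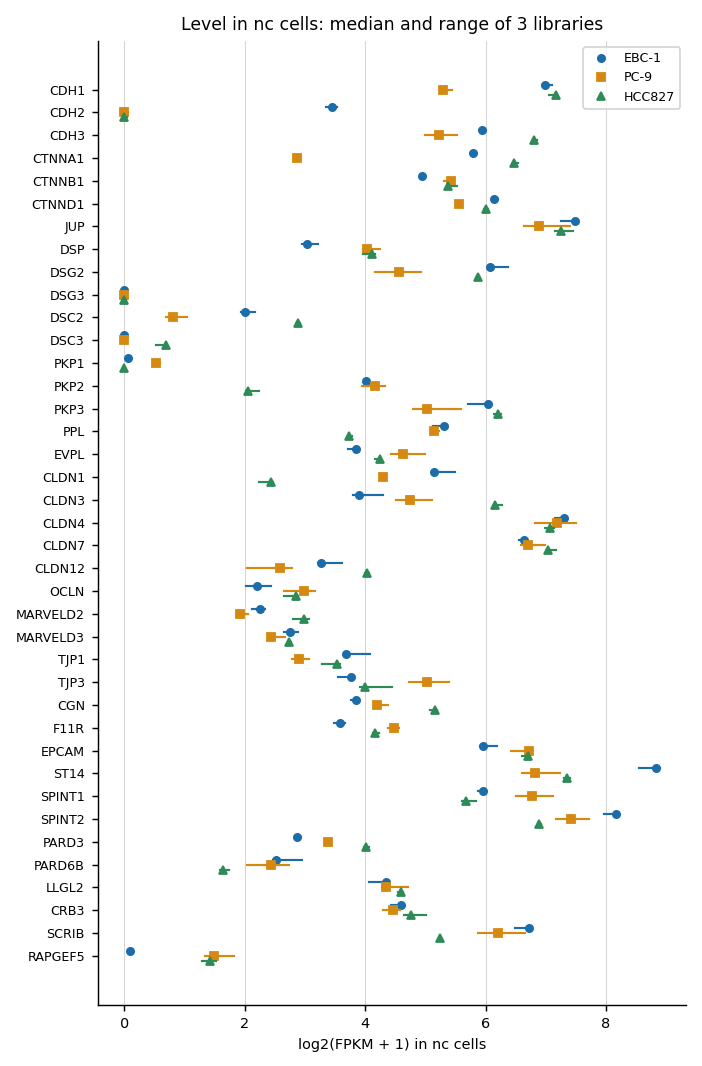
Level of each of the 39 genes in nc cells as log2(FPKM + 1) on the horizontal axis, with a symbol at the median and a bar over the range of 3 libraries for EBC-1 (circles), PC-9 (squares) and HCC827 (triangles). CTNNA1 is far lower in PC-9 than in the other two lines, CDH2 is found in EBC-1, and CLDN1 is lowest in HCC827.

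Each line was then compared between shSYK and nc cells. Of the 39 genes, 35 passed the filter of a mean of 1 FPKM in each line, and 34 passed it in all 3. For EBC-1, 6 of the 35 tested rose and 9 fell, where 23.1% of all 12430 genes tested rose and 21.6% fell. In PC-9, none rose and 1 fell (limma, with 9 of the 35 at an unadjusted p under 0.05, and none rose with limma-voom), where 0.678% of 12089 genes rose and 1.41% fell. In HCC827, 2 rose and 22 fell, where 17.2% of 11999 genes rose and 20.7% fell. The share of falling genes was therefore 25.7% of the members against 21.6% of all genes in EBC-1, and 62.9% against 20.7% in HCC827. The members of EBC-1 had a median log2 fold change of -0.08 against 0.009 over all genes. For PC-9 these medians were 0.003 and 0.0088, and for HCC827 they were -0.27 and -0.0053.

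Of the 8 desmosomal genes tested, 4 rose and 1 fell in EBC-1, and 6 fell in HCC827. In the tight junction, 4 of 12 fell and 1 rose in EBC-1, and 6 fell and 1 rose in HCC827. In the adherens junction, 2 of 6 fell and 1 rose in EBC-1, and 3 of 5 fell in HCC827. Of the 5 polarity genes, none passed the test in EBC-1 (limma, with none at an unadjusted p under 0.05), and 3 fell and 1 rose in HCC827. Counted by libraries alone, in EBC-1 7 members had every shSYK library above every nc library and 13 below, where 29.7% and 27.2% of all genes did. In PC-9 the counts were 5 and 6, against 11.4% and 12.3%, and in HCC827 they were 3 and 24, against 24.7% and 27.6%. Without nc library 2 of EBC-1 alone, PPL (-0.19), MARVELD3 (-0.30) and CRB3 (-0.22) also fell and TJP1 (0.35) and EPCAM (0.31) rose, MARVELD3 (-0.31) also fell without shSYK library 1, and PARD6B (-0.53) without shSYK library 3. Without nc library 2 and shSYK library 3, the libraries that stood apart, 8 members rose and 12 fell in EBC-1, where 26.0% of all genes rose and 26.0% fell. Without nc library 1 of PC-9, 1 rose and 1 fell there, where 2.45% and 2.65% of all genes did. Scaled to an equal sum of FPKM in every library, the median of all genes in EBC-1 moved from 0.009 to 0.1175 and that of the members from -0.08 to 0.04, with 8 members rising and 7 falling, and over all genes 4029 (32.4%) rose and 1895 (15.2%) fell against 2876 and 2686 as deposited. In HCC827 the same scaling gave 2 rises and 18 falls among the members and a median of -0.21, with 2483 rises (20.7%) and 1903 falls (15.9%) over all genes against 2066 and 2488.

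**Figure D2:**
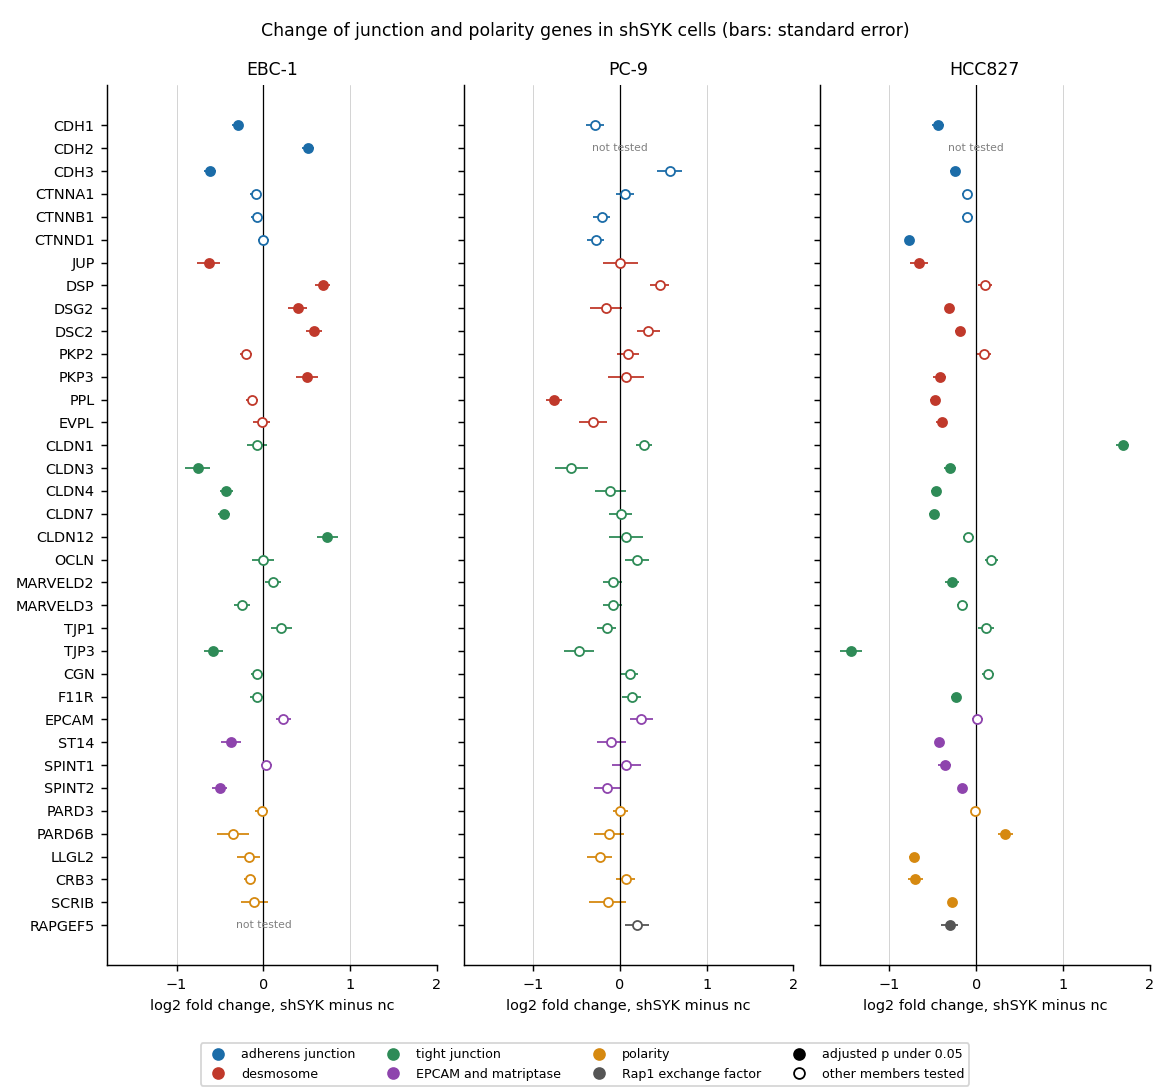
Log2 fold change of shSYK against nc cells (horizontal axis, on the log2(FPKM + 1) scale) with its standard error for each member tested, in EBC-1, PC-9 and HCC827, coloured by class. Filled symbols passed an adjusted p of 0.05. DSP, DSG2, DSC2 and PKP3 lie to the right of 0 in EBC-1, most desmosomal genes lie to the left in HCC827, and CLDN1 and TJP3 in HCC827 lie farthest from 0.

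CDH1 and CDH3 fell in EBC-1 and HCC827, and CDH2 rose in EBC-1. CDH1 was measured at 126, 136 and 122 FPKM in nc and 106, 105 and 102 FPKM in shSYK cells of EBC-1. CDH1 fell by 0.30 ± 0.07 (SE) on the log2 scale, adjusted p = 0.00913. In HCC827 it was measured at 144, 143 and 132 FPKM in nc and 100.3, 111 and 97.1 FPKM in shSYK cells and it fell by 0.44 ± 0.07 (SE) on the log2 scale, adjusted p = 0.00314. PC-9 had 42.7, 37.7 and 38.1 FPKM in nc and 30.96, 33.9 and 31.9 FPKM in shSYK cells, with a log2 fold change of -0.28 that missed the threshold (adjusted p = 0.244). CDH1 was called a fall there in the fit of all 18 libraries (adjusted p = 0.019). The nc and shSYK libraries did not overlap in any of the 3 lines. In EBC-1 the fall of CDH1 lost its call with an equal sum per library (-0.166, adjusted p = 0.0864) and with quantile normalization (-0.144, adjusted p = 0.19).

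CDH3, P-cadherin, which is found in basal cells of stratified epithelia, fell in the same lines as CDH1 and was not called in PC-9. In EBC-1 it had 63.4, 58.5 and 60.7 FPKM in nc and 41.05, 40.2 and 37.2 FPKM in shSYK cells. CDH3 fell by 0.61 ± 0.07 (SE) on the log2 scale, adjusted p = 0.000646. In HCC827 it had 115, 109 and 110.4 FPKM in nc and 96.2, 95.9 and 89.5 FPKM in shSYK cells. There it fell by 0.25 ± 0.05 (SE) on the log2 scale, adjusted p = 0.0104. In PC-9 every shSYK library lay above every nc library, with 45.2, 31.02 and 36.5 FPKM in nc and 53.8, 56.5 and 56.9 FPKM in shSYK cells, and the log2 fold change of 0.57 missed the threshold (adjusted p = 0.108) but reached an adjusted p of 0.0112 without nc library 1. With no library left out, CDH3 was also called a rise there with an equal sum per library (adjusted p = 0.0163) and quantile normalization (0.0086). The same held in the fit of all 18 libraries (0.00102) and with length and GC trends removed (0.0126). The change in PC-9 differed from that in EBC-1 (EBC-1 minus PC-9 -1.18 ± 0.14 (SE), adjusted p = 3.19e-05) and from that in HCC827 (PC-9 minus HCC827 0.82 ± 0.14 (SE), adjusted p = 0.0013). CDH2 had 9.95, 10.6 and 9.197 FPKM in nc and 14.9, 13.8 and 14.97 FPKM in shSYK cells of EBC-1. CDH2 rose by 0.51 ± 0.07 (SE) on the log2 scale, adjusted p = 0.00173. It stayed at or under 0.064 FPKM in every library of PC-9 and at or under 0.038 FPKM in HCC827, with at most 4 and 2 reads per library.

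Of the catenins, CTNND1, the p120 catenin that holds cadherins at the membrane, passed the test in HCC827. There it had 63.4, 62.1 and 64.5 FPKM in nc and 36.8, 36.7 and 36.1 FPKM in shSYK cells. It fell by 0.78 ± 0.05 (SE) on the log2 scale, adjusted p = 0.000108, with every shSYK library far below every nc library. In EBC-1 it had 68.6, 72.7 and 69.7 FPKM in nc and 69.8, 69.1 and 72.2 FPKM in shSYK cells, where the groups overlapped, and in PC-9 47.5, 45.6 and 45.97 FPKM in nc and 35.3, 40.6 and 38.4 FPKM in shSYK cells, where they did not, with log2 fold changes of -0.0001 and -0.28 that did not pass the test (adjusted p = 0.999 and 0.244). The fall in HCC827 was larger than the change in EBC-1 (EBC-1 minus HCC827 0.78 ± 0.08 (SE), adjusted p = 7.05e-06) and in PC-9 (PC-9 minus HCC827 0.50 ± 0.08 (SE), adjusted p = 0.000928). CTNNA1 and CTNNB1, which encodes beta-catenin, passed the test in no line, with log2 fold changes between -0.21 and 0.06. With length and GC trends removed, CTNNA1 (-0.165), CTNNB1 (-0.26) and CTNND1 (-0.32) fell in EBC-1 (adjusted p = 0.017, 0.00652 and 0.00393) and CTNNB1 (-0.215) in HCC827 (0.0467). In the fit of all 18 libraries, CTNND1 (-0.279) fell in PC-9 (adjusted p = 0.00541).

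In the desmosome, JUP fell in EBC-1 and HCC827, while DSG2, DSC2 and PKP3 moved in opposite directions in these lines. JUP, plakoglobin, which sits in both desmosomes and adherens junctions, had 179, 151 and 183 FPKM in nc and 120.0, 123 and 89.5 FPKM in shSYK cells of EBC-1. JUP fell by 0.63 ± 0.13 (SE) on the log2 scale, adjusted p = 0.00798. HCC827 had 152, 141 and 174 FPKM in nc and 108, 89.2 and 96.9 FPKM in shSYK cells, where JUP fell by 0.66 ± 0.10 (SE) on the log2 scale, adjusted p = 0.00242. In PC-9 its nc libraries spread from 98.6 to 168 FPKM and enclosed the shSYK libraries (116 to 139 FPKM).

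Of the genes that rose in EBC-1, DSG2, desmoglein 2, had 64.6, 81.8 and 66.5 FPKM in nc and 87.6, 87.6 and 105 FPKM in shSYK cells of EBC-1. DSG2 rose by 0.39 ± 0.11 (SE) on the log2 scale, adjusted p = 0.0254. In HCC827 it had 56.9, 58.1 and 57.9 FPKM in nc and 45.7, 47.4 and 45.4 FPKM in shSYK cells. There it fell by 0.31 ± 0.05 (SE) on the log2 scale, adjusted p = 0.00254. DSC2, desmocollin 2, its partner, had 2.85, 3.47 and 2.995 FPKM in nc and 4.95, 4.87 and 5.59 FPKM in shSYK cells of EBC-1. It rose by 0.58 ± 0.09 (SE) on the log2 scale, adjusted p = 0.00224. In HCC827, DSC2 had 6.296, 6.56 and 6.39 FPKM in nc and 5.35, 5.62 and 5.57 FPKM in shSYK cells. DSC2 fell by 0.19 ± 0.06 (SE) on the log2 scale, adjusted p = 0.0329. Both desmosomal cadherins were thus higher in every shSYK library of EBC-1 and lower in every shSYK library of HCC827. PKP3, plakophilin 3, which links the cadherins to desmoplakin, had 64.7, 51.6 and 67.99 FPKM in nc and 92.7, 93.1 and 75.2 FPKM in shSYK cells of EBC-1. There it rose by 0.50 ± 0.13 (SE) on the log2 scale, adjusted p = 0.0161. HCC827 had 72.8, 69.7 and 75.7 FPKM in nc and 59.8, 52.02 and 50.7 FPKM in shSYK cells, where PKP3 fell by 0.42 ± 0.07 (SE) on the log2 scale, adjusted p = 0.00453. These were the 3 members that rose in EBC-1 and fell in HCC827, and the changes differed between the lines (EBC-1 minus HCC827 0.71 for DSG2, 0.77 for DSC2 and 0.92 for PKP3, adjusted p = 0.0215, 0.000392 and 0.011), that of DSG2 with no call without nc library 1, nc library 3 or shSYK library 3 of EBC-1 (adjusted p up to 0.0604). The call of DSG2 in EBC-1 was lost without the same libraries (adjusted p = 0.0681 to 0.0933), that of PKP3 in EBC-1 without shSYK library 1 or 2 (0.0532 and 0.0547), and that of DSC2 in HCC827 without any single library of that line (0.0663 to 0.0906). Once corrected for length and GC content of genes, DSG2 and DSC2 in EBC-1 had log2 fold changes of 0.14 and 0.15 and no call (adjusted p = 0.136 and 0.0694).

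DSP, desmoplakin, which ties the plaque to keratin filaments, passed the test in EBC-1. It had 6.76, 8.27 and 7.18 FPKM in nc and 11.9, 12.1 and 13.3 FPKM in shSYK cells of EBC-1. It rose by 0.68 ± 0.09 (SE) on the log2 scale, adjusted p = 0.0011. In PC-9 the shSYK libraries also lay above the nc libraries, with 14.6, 17.9 and 15.4 FPKM in nc and 20.9, 23.9 and 22.1 FPKM in shSYK cells, but the change of 0.46 missed the threshold (adjusted p = 0.1) and passed it without nc library 2 (0.036). It also passed there in the fit of all 18 libraries (adjusted p = 0.00456) and with length and GC trends removed (0.00951). In HCC827 the groups overlapped, at 14.7 to 16.9 FPKM in nc and 15.4 to 18.4 FPKM in shSYK cells, and the change in EBC-1 exceeded that in HCC827 (EBC-1 minus HCC827 0.58 ± 0.13 (SE), adjusted p = 0.0058).

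PPL, periplakin, another linker to keratin filaments, was the member that passed the test in PC-9. It had 36.4, 34.1 and 33.3 FPKM in nc and 19.5, 20.7 and 19.9 FPKM in shSYK cells of PC-9. PPL fell by 0.76 ± 0.10 (SE) on the log2 scale, adjusted p = 0.0132, with no overlap between the groups. In HCC827 it had 12.7, 12.1 and 12.3 FPKM in nc and 8.07, 8.796 and 8.92 FPKM in shSYK cells. There it fell by 0.48 ± 0.06 (SE) on the log2 scale, adjusted p = 0.00115. In EBC-1 the groups overlapped (34.1 to 39.2 and 33.5 to 34.1 FPKM), and the change in PC-9 differed from it (EBC-1 minus PC-9 0.63 ± 0.09 (SE), adjusted p = 0.000195). The call in PC-9 was lost without nc library 3, shSYK library 1, shSYK library 2 or shSYK library 3 (adjusted p = 0.098 to 0.115). Beside this, KRT5, a basal keratin that marks squamous cells, had 23.5, 17.6 and 20.9 FPKM in nc and 136, 139.8 and 139 FPKM in shSYK cells of PC-9. It rose by 2.70 ± 0.12 (SE) on the log2 scale, adjusted p = 0.000263. Of the other squamous markers, KRT14 and TP63 stayed at or under 0.265 and 0.0973 FPKM in PC-9, and KRT6A, at 0.499 to 0.9497 FPKM in nc and 1.25 to 2.42 FPKM in shSYK cells, was not called (adjusted p = 0.126). The part of KRT5 in the values of PPL was not tested. EVPL, envoplakin, fell by 0.40 ± 0.06 (SE) on the log2 scale, adjusted p = 0.00345 in HCC827, and PKP2 passed the test in no line. In EBC-1, PKP2 was called a fall with a filter at 5 FPKM (-0.198, adjusted p = 0.0495). It was called there also with the length trend removed (0.0301) and with length and GC trends removed (0.0229).

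**Figure D3:**
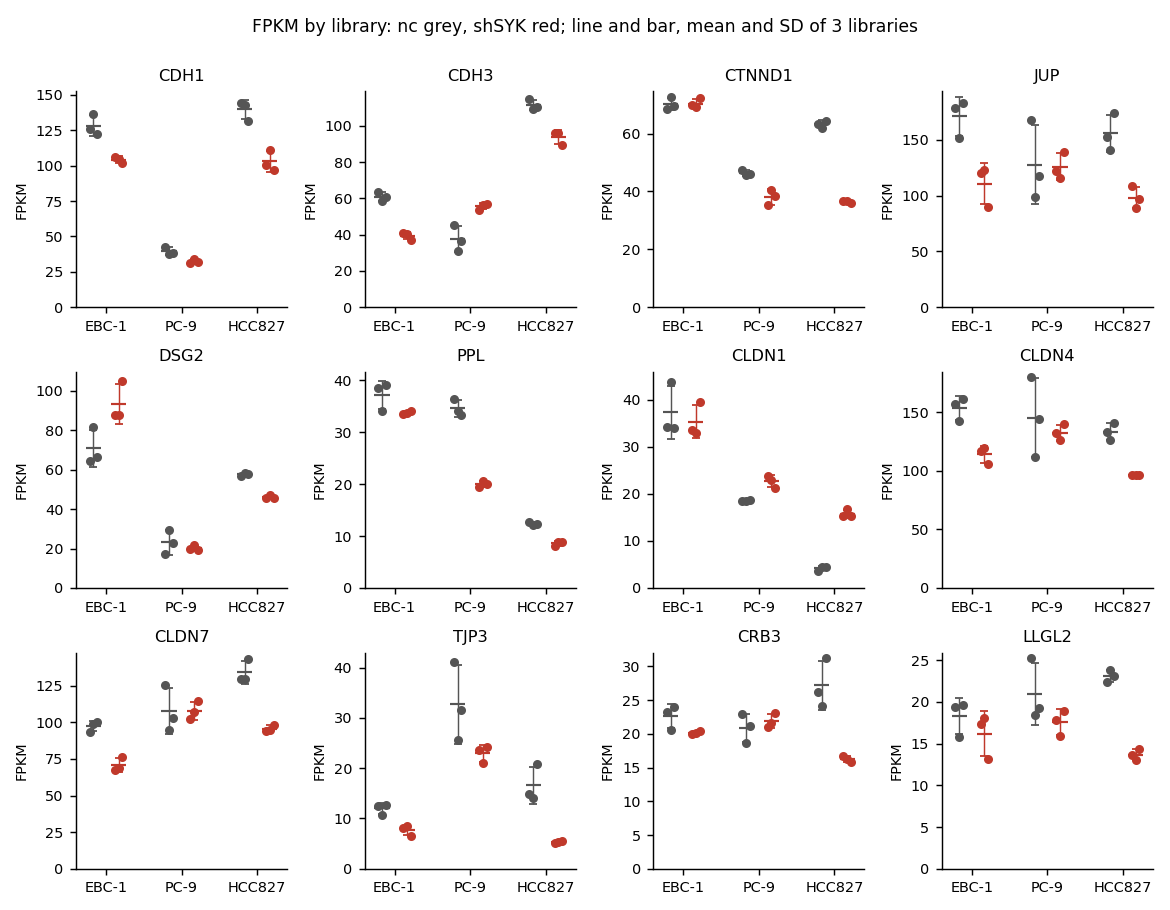
FPKM of 12 members in each library, nc in grey and shSYK in red, with the mean and SD of 3 libraries, for EBC-1, PC-9 and HCC827 (vertical axes start at 0). CLDN1 rises and TJP3, CTNND1, CRB3 and LLGL2 fall in HCC827 with no overlap between groups, DSG2 goes up in EBC-1 and down in HCC827, and PPL falls in PC-9.

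In the tight junction, CLDN1 showed the largest change of any member. In HCC827 it rose from 3.701, 4.44 and 4.54 FPKM in nc to 15.4, 16.7 and 15.2 FPKM in shSYK cells, with a change of 1.69 ± 0.08 (SE) on the log2 scale and an adjusted p of 5.5e-05, and a ratio of the means of 3.74. In PC-9 the shSYK libraries also lay above the nc libraries, with 18.4, 18.6 and 18.6 FPKM in nc and 23.8, 22.9 and 21.3 FPKM in shSYK cells, at a log2 fold change of 0.28 (adjusted p = 0.212). EBC-1 had 34.2, 43.9 and 34.1 FPKM in nc and 33.6, 33.02 and 39.5 FPKM in shSYK cells, and its groups overlapped. The change in HCC827 was larger than that in EBC-1 (EBC-1 minus HCC827 -1.76 ± 0.14 (SE), adjusted p = 5.45e-07) and in PC-9 (PC-9 minus HCC827 -1.41 ± 0.14 (SE), adjusted p = 1.44e-05).

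CLDN3, CLDN4 and CLDN7 fell in EBC-1 and HCC827. CLDN7, the most abundant claudin of HCC827 beside CLDN4 and a lateral-membrane partner of EPCAM, had 129, 129.6 and 143 FPKM in nc and 93.8, 94.5 and 98.2 FPKM in shSYK cells of HCC827. CLDN7 fell by 0.48 ± 0.06 (SE) on the log2 scale, adjusted p = 0.00115. In EBC-1 it had 93.2, 99.1 and 100.1 FPKM in nc and 67.6, 68.7 and 76.5 FPKM in shSYK cells. In that line it fell by 0.45 ± 0.07 (SE) on the log2 scale, adjusted p = 0.00245. In PC-9 the groups overlapped (94.9 to 125 and 102 to 115 FPKM). CLDN4, another claudin of simple epithelia, had 157, 142 and 161 FPKM in nc and 117, 119 and 105 FPKM in shSYK cells of EBC-1. CLDN4 fell by 0.43 ± 0.08 (SE) on the log2 scale, adjusted p = 0.00444. HCC827 had 133, 126 and 140.4 FPKM in nc and 96.2, 96.3 and 96.1 FPKM in shSYK cells, where CLDN4 fell by 0.47 ± 0.06 (SE) on the log2 scale, adjusted p = 0.00103. The nc libraries of PC-9 spread from 112 to 179.8 FPKM for this gene and enclosed the shSYK libraries. CLDN3 had 13.8, 12.9 and 18.7 FPKM in nc and 9.33, 8.92 and 7.21 FPKM in shSYK cells of EBC-1. It fell by 0.76 ± 0.15 (SE) on the log2 scale, adjusted p = 0.00539. In HCC827 it had 69.8, 70.2 and 76.3 FPKM in nc and 60.3, 54.03 and 60.7 FPKM in shSYK cells. CLDN3 fell by 0.30 ± 0.07 (SE) on the log2 scale, adjusted p = 0.0109. All 3 of these claudins fell in both EBC-1 and HCC827 with no overlap between groups. Values of CLDN7 in EBC-1 and CLDN3 in HCC827 lost their calls once corrected for length and GC content of genes (log2 fold changes of -0.14 and -0.14, adjusted p = 0.353 and 0.0769). CLDN3 in PC-9 had 33.5, 21.8 and 25.8 FPKM in nc and 14.1, 19.6 and 20.3 FPKM in shSYK cells, with every shSYK library below every nc library and no call (adjusted p = 0.222). In the fit of all 18 libraries CLDN3 was called a fall in PC-9 (adjusted p = 0.0327). CLDN7 overlaps ELP5, with a mean of up to 18.8 FPKM in a line, on the other strand, and the strand setting of the counting is not given in the sources used here.

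CLDN12, a claudin that lacks the usual anchor to ZO proteins, moved the other way in EBC-1, with 8.29, 11.2 and 8.58 FPKM in nc and 15.1, 15.3 and 17.99 FPKM in shSYK cells, and rose by 0.73 ± 0.12 (SE) on the log2 scale, adjusted p = 0.00296. In HCC827 the groups overlapped (14.98 to 15.8 and 13.3 to 15.4 FPKM), and the changes of the lines differed (EBC-1 minus HCC827 0.82 ± 0.22 (SE), adjusted p = 0.0158). CLDN12 overlaps GTPBP10 on the same strand, with a mean of up to 4.90 FPKM in a line. Within EBC-1, therefore, 3 claudins fell while CLDN12 rose, and within HCC827 the same 3 fell while CLDN1 rose.

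The scaffold gene TJP3, which encodes ZO-3, had the largest fall. HCC827 had 14.9, 14.1 and 20.8 FPKM in nc and 5.17, 5.42 and 5.56 FPKM in shSYK cells, where TJP3 fell by 1.44 ± 0.13 (SE) on the log2 scale, adjusted p = 0.000391. In EBC-1 it had 12.6, 10.8 and 12.7 FPKM in nc and 8.05, 8.57 and 6.59 FPKM in shSYK cells. In that line it fell by 0.58 ± 0.11 (SE) on the log2 scale, adjusted p = 0.00467. In PC-9 its libraries also did not overlap, with 41.1, 25.5 and 31.6 FPKM in nc and 23.6, 20.97 and 24.2 FPKM in shSYK cells, but the log2 fold change of -0.47 did not pass the test (adjusted p = 0.245). TJP3 was called a fall there with quantile normalization (adjusted p = 0.0435) and with length and GC trends removed (0.0307). The fall in HCC827 was larger than that in EBC-1 (EBC-1 minus HCC827 0.87 ± 0.22 (SE), adjusted p = 0.0109) and in PC-9 (PC-9 minus HCC827 0.97 ± 0.22 (SE), adjusted p = 0.0116). TJP1, which encodes ZO-1, passed the test in no line, with log2 fold changes from -0.15 to 0.20. Of the remaining tight junction genes, F11R (junctional adhesion molecule A) fell by 0.24 and MARVELD2 (tricellulin) by 0.28 in HCC827, the latter with no call without nc library 2, nc library 3, shSYK library 2 or shSYK library 3 (adjusted p = 0.0913 to 0.102), and OCLN, CGN and MARVELD3 passed the test in no line. Other settings gave calls for these: OCLN fell in EBC-1 with length and GC trends removed (-0.313, adjusted p = 0.0273), and CGN rose in HCC827 with quantile normalization (0.194, 0.0495) and with those trends removed (0.263, 0.0131). MARVELD3 fell in EBC-1 with quantile normalization, in the fit of all 18 libraries, with limma-voom and with the length trend removed (adjusted p = 0.0285 to 0.0497).

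The promoters of members that changed in HCC827 are shown for CLDN1, which rose, and for CLDN4, TJP3 and CRB3, which fell. They are the 250 bases before the RefSeq gene start (GRCh38.p14), and capitals mark matches to 3 words searched on both strands. The words are the E2-box CACCTG, the site of the SNAI and ZEB repressors, the GC-box GGGCGG, and the AP-1 site TGANTCA, and no matches of different words overlapped. CLDN1 lies at chr3:190322447-190322696, minus strand, CLDN4 at chr7:73830746-73830995, plus strand, TJP3 at chr19:3708134-3708383, plus strand and CRB3 at chr19:6464021-6464270, plus strand.
CLDN1: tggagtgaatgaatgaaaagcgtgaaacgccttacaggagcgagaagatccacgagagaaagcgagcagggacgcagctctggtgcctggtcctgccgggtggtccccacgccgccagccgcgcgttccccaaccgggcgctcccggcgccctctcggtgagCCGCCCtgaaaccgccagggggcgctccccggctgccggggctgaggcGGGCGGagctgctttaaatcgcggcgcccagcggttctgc
CLDN4: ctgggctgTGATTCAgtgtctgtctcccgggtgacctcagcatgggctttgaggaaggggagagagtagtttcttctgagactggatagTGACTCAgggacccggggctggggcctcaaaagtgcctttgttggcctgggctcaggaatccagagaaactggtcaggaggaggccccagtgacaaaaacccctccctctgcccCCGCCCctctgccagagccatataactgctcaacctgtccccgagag
TJP3: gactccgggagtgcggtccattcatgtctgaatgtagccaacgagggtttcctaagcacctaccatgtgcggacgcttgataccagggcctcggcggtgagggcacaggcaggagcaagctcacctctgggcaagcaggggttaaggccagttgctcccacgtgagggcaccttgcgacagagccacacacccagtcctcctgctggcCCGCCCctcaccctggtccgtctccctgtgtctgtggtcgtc
CRB3: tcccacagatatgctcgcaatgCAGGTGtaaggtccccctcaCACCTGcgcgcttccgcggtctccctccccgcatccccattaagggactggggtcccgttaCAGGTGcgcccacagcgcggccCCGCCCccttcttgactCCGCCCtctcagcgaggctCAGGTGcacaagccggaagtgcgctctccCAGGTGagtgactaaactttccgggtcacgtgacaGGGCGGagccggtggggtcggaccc

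CLDN1, CLDN4 and TJP3 hold no E2-box in these windows, while CRB3 holds 5 matches to it, the most of any matched member. The windows shown were picked by hand, and a link of these words to the changes was not tested. CLDN4 holds both AP-1 matches found among the members. RefSeq promoters were matched for 23 of the 39 members. Among these, 78.3% hold a GC-box, 26.1% an E2-box and 4.35% an AP-1 site, against 42.3%, 17.5% and 6.6% of all 27305 promoters of the same length. The members' windows had a median of 66% G and C, against 58% over all promoters, and the GC-box is made of these bases. Of the 11 matched members that fell in HCC827, 9 hold a GC-box and 3 an E2-box. No entry was found for CDH1, CDH3, CTNND1, PKP2, PKP3, PPL, EVPL, MARVELD3, F11R, EPCAM, ST14, SPINT2, PARD3, PARD6B, LLGL2 and SCRIB.

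EPCAM, matriptase and its inhibitors form a membrane group around the claudins, in which matriptase (ST14) is a surface protease held in check by the inhibitors SPINT1 and SPINT2, and EPCAM binds claudins. ST14 had 456, 373 and 474 FPKM in nc and 358, 348 and 296 FPKM in shSYK cells of EBC-1, the highest level of any member, and fell by 0.38 ± 0.11 (SE) on the log2 scale, adjusted p = 0.0292. In HCC827 it had 163, 157 and 168 FPKM in nc and 122, 123 and 118 FPKM in shSYK cells. It fell by 0.42 ± 0.05 (SE) on the log2 scale, adjusted p = 0.00115. SPINT2 had 285, 249 and 295 FPKM in nc and 201, 201 and 181 FPKM in shSYK cells of EBC-1. SPINT2 fell by 0.51 ± 0.08 (SE) on the log2 scale, adjusted p = 0.00303. HCC827 had 118, 120.0 and 117 FPKM in nc and 108, 105 and 104 FPKM in shSYK cells, where SPINT2 fell by 0.16 ± 0.05 (SE) on the log2 scale, adjusted p = 0.0318. The protease and this inhibitor thus fell in the same 2 lines, and in PC-9 the groups of both overlapped (adjusted p = 0.852 and 0.741). SPINT1 fell by 0.36 in HCC827. In EBC-1 it was called a rise with an equal sum per library (0.164, adjusted p = 0.0394) and with length and GC trends removed (0.328, 0.00208). EPCAM passed the test in no line, and its shSYK libraries lay above the nc libraries in EBC-1 (58.9 to 71.6 against 71.8 to 78.2 FPKM, adjusted p = 0.0632) and in PC-9 (84.3 to 109 against 113 to 121 FPKM, adjusted p = 0.404). In EBC-1, EPCAM was called a rise with an equal sum per library (0.358, adjusted p = 0.0184), quantile normalization (0.0386), limma-voom (0.0497) and the length trend removed (0.0433). The call of ST14 in EBC-1 was lost without nc library 1, nc library 3, shSYK library 2 or shSYK library 3 (adjusted p = 0.0535 to 0.0982), and that of SPINT2 in HCC827 without any library but shSYK library 1 (0.0551 to 0.0961) and with length and GC trends removed (-0.01, adjusted p = 0.855). SPINT2 overlaps PPP1R14A, with a mean of up to 31.7 FPKM in a line, on the other strand.

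Among the polarity genes, changes were found in HCC827. LLGL2, a basolateral polarity gene of the lethal giant larvae family, had 22.4, 23.9 and 23.1 FPKM in nc and 13.7, 13.01 and 14.3 FPKM in shSYK cells. LLGL2 fell by 0.72 ± 0.06 (SE) on the log2 scale, adjusted p = 0.000239. CRB3, an apical Crumbs protein, had 26.2, 24.1 and 31.2 FPKM in nc and 16.7, 16.3 and 15.8 FPKM in shSYK cells. In that line it fell by 0.70 ± 0.09 (SE) on the log2 scale, adjusted p = 0.00143. In both, every shSYK library lay below every nc library. PARD6B, a scaffold of the apical PAR complex, had 2.34, 2.11 and 2.02 FPKM in nc and 3.37, 2.75 and 2.87 FPKM in shSYK cells. It rose by 0.34 ± 0.09 (SE) on the log2 scale, adjusted p = 0.0216, and its call was lost without nc library 2, nc library 3 or shSYK library 1 (adjusted p = 0.0583 to 0.0621). SCRIB, a basolateral scaffold, fell by 0.27, and PARD3 passed the test in no line. In EBC-1 the 5 polarity genes had log2 fold changes from -0.35 to -0.02, all below 0 and none called. With length and GC trends removed, PARD6B was called a fall there (-0.622, adjusted p = 0.0128). For the main fit, PC-9 is given next. In PC-9 they ranged from -0.23 to 0.07. The fall of CRB3 in HCC827 was larger than the changes in EBC-1 (EBC-1 minus HCC827 0.55 ± 0.13 (SE), adjusted p = 0.00661) and in PC-9 (PC-9 minus HCC827 0.77 ± 0.13 (SE), adjusted p = 0.00119). CRB3 overlaps SLC25A23 and DENND1C, with means of up to 17.6 and 8.79 FPKM in a line, on the other strand. RAPGEF5, which activates the small GTPase Rap1 that strengthens cadherin contacts, was low, at 1.45 to 1.86 FPKM in nc and 1.08 to 1.18 FPKM in shSYK cells of HCC827, where it fell by 0.31 ± 0.10 (SE) on the log2 scale, adjusted p = 0.0434. That call was lost without nc library 2, nc library 3, shSYK library 1, shSYK library 2 or shSYK library 3 (0.0895 to 0.13). In EBC-1 it stayed under 0.18 FPKM, and in PC-9 the groups overlapped.

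Ratios of FPKM between members within a library, as printed here, do not depend on how the library was scaled. The test and the overlap of groups used log2 ratios with 1 added to each FPKM. Those depend on the scaling, most for low genes. Of 25 ratios tested, 8 or 9 per line, 20 had groups that did not overlap, each with an exact two-sided permutation p of 0.1, the smallest that 3 against 3 libraries allow (adjusted p = 0.125), so none could pass the threshold. The share of other gene pairs without overlap was not computed, so this count has no background. The ratio of CDH3 to CDH1 was 0.503, 0.429 and 0.497 in nc and 0.387, 0.383 and 0.366 in shSYK cells of EBC-1, while in PC-9 it was 1.06, 0.824 and 0.959 in nc and 1.74, 1.67 and 1.79 in shSYK cells. HCC827 had 0.795, 0.763 and 0.838 in nc and 0.959, 0.861 and 0.922 in shSYK cells. The ratio was thus lower in every shSYK library of EBC-1 and higher in every one of PC-9 and HCC827. CDH2 made up 4.79% to 5.14% of the summed FPKM of these 3 cadherins in nc and 8.67% to 9.74% in shSYK cells of EBC-1. CDH3 made up 45.2% to 51.4% in nc and 62.5% to 64.1% in shSYK cells of PC-9, and 43.3% to 45.6% and 46.2% to 48.96% in HCC827.

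The claudins shifted within HCC827, where CLDN1 made up 1.05% to 1.28% of the summed FPKM of the 5 claudins in nc and 5.34% to 6.06% in shSYK cells. CLDN4 and CLDN7 still held the largest shares there, with 33.6% to 34.9% and 33.6% to 34.4% in shSYK cells. In EBC-1, CLDN12 made up 2.66% to 3.62% in nc and 6.21% to 7.29% in shSYK cells, and in HCC827 4.155% to 4.42% and 4.75% to 5.39%. The ratio of TJP3 to TJP1 was 1.36, 1.33 and 2.37 in nc and 0.441, 0.501 and 0.537 in shSYK cells of HCC827 and was lower also in EBC-1 (1.09, 0.672 and 1.07 in nc, 0.539, 0.588 and 0.418 in shSYK cells). The ratio of CTNND1 to CTNNA1 was 0.686, 0.71 and 0.735 in nc and 0.44, 0.431 and 0.453 in shSYK cells of HCC827. It was lower also in every shSYK library of PC-9 (7.854, 6.906 and 7.26 in nc, 6.044, 5.656 and 5.489 in shSYK cells) and higher in every one of EBC-1 (1.268, 1.338 and 1.285 in nc, 1.422, 1.344 and 1.384 in shSYK cells).

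**Figure D4:**
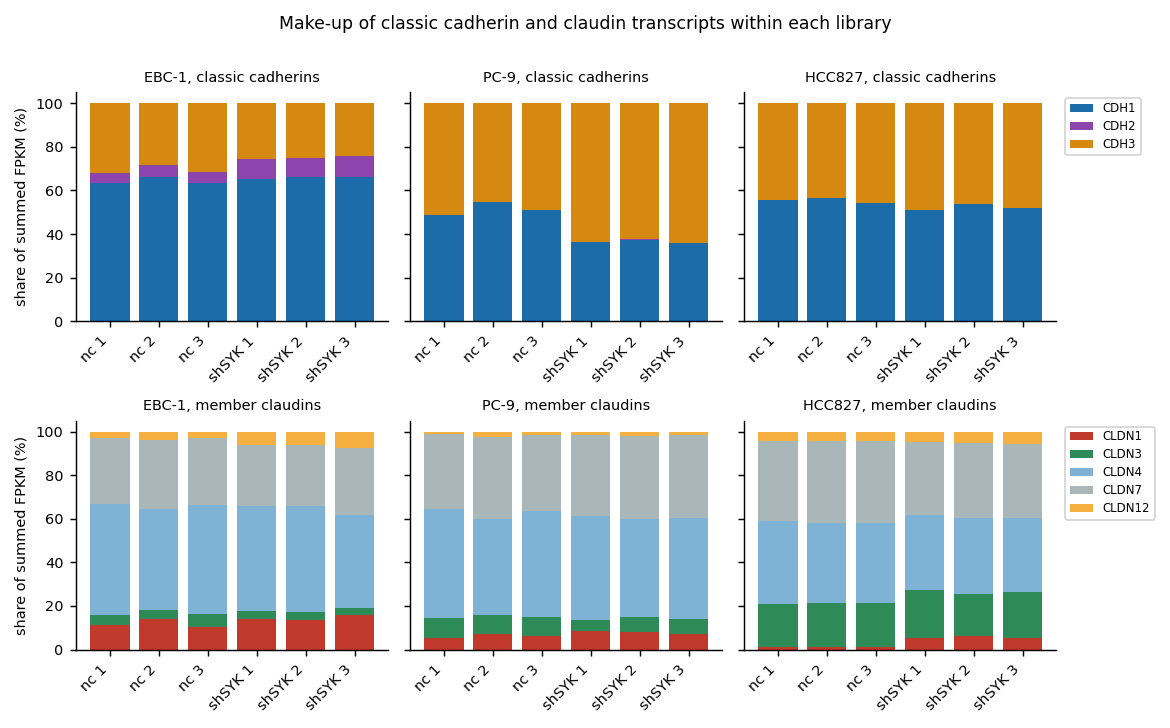
Share of each gene in the summed FPKM of CDH1, CDH2 and CDH3 (upper row) and of CLDN1, CLDN3, CLDN4, CLDN7 and CLDN12 (lower row), in percent, for each nc and shSYK library of the 3 lines. CDH3 takes a larger share in shSYK cells of PC-9 and, by less, of HCC827, CDH2 in EBC-1, CLDN12 in EBC-1 and, by less, in HCC827, and CLDN1 in HCC827.

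Whether a gene responded differently in 2 lines was tested as the difference of the shSYK minus nc changes in 1 fit of all 18 libraries. This fit shares 1 variance per gene over the lines, although some genes spread more in PC-9. For CDH3 the SE was 0.146 for the change in PC-9 alone and 0.137 for the difference EBC-1 minus PC-9. For such genes the adjusted p of differences with PC-9 may be too small. Of 36 members in this fit, 13 (36.1%) differed between EBC-1 and HCC827, where 20.6% of all 14636 genes did, 6 (16.7%) between EBC-1 and PC-9, where 18.3% did, and 9 (25.0%) between PC-9 and HCC827, where 7.63% did. In all, 17 of the 36 members differed in at least 1 pair, where 29.4% of all genes did. Among the 13 differences between EBC-1 and HCC827, the change was more positive in EBC-1 for 12, with CLDN1 as the exception, and 6 had opposite signs. The shares of these directions and signs over all genes that differed were not computed, so they have no background. CDH1 and JUP, which fell in both lines, were not among the 13, with differences of 0.14 ± 0.10 (SE) and 0.03 ± 0.24 (SE). The CDH2 differences rest on a gene that is near 0 in PC-9 and HCC827, and they were lost with a pseudocount of 0.1. CDH2 passed the filter through EBC-1 alone, so a change in the other lines could hardly show, and the counts above include it. Counted over the lines, 9 members fell in both EBC-1 and HCC827 (CDH1, CDH3, JUP, CLDN3, CLDN4, CLDN7, TJP3, ST14 and SPINT2), and none rose in both. The share of all genes that fell or rose in both was not computed, so these counts have no background. Of the 39, 12 were called in no line, among them DSG3, DSC3 and PKP1, which were not tested in any line. With each library left out in turn, the members that differed in at least 1 pair ranged from 13 without shSYK library 3 of PC-9 or any library of HCC827 but nc library 1, where 25.5% to 26.8% of all genes differed, to 25 without nc library 1 of PC-9, where 47.5% did.

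**Figure D5:**
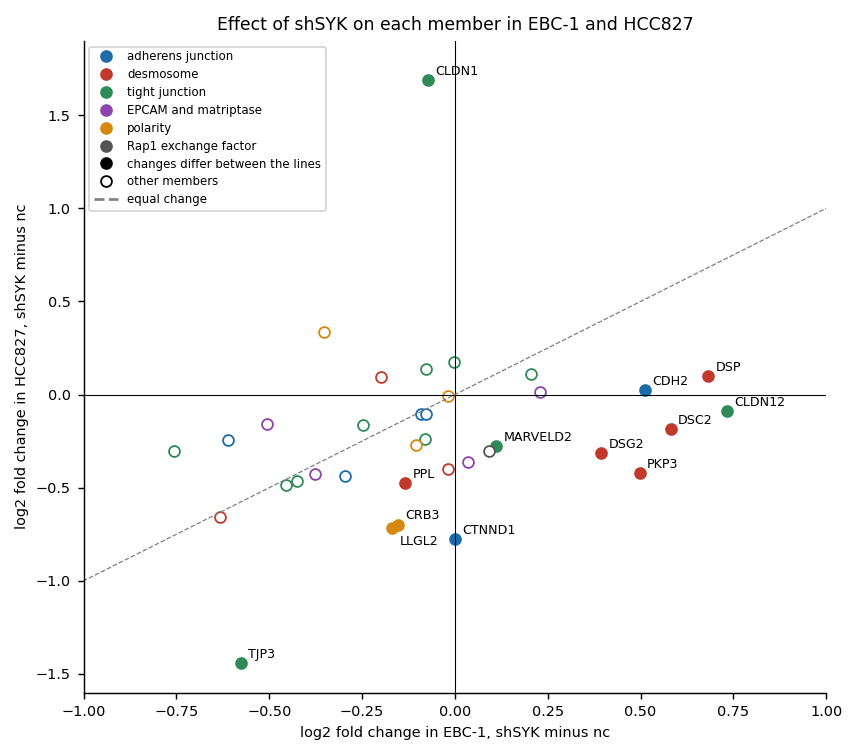
Log2 fold change of each member in EBC-1 (horizontal axis) against HCC827 (vertical axis), both on the log2(FPKM + 1) scale, coloured by class, with named filled symbols where the changes differed between the lines at an adjusted p under 0.05. Most of the named genes lie below the dashed line of equal change, and CLDN1 lies far above it.

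Other genes of the same structures, 79 in a wider list, gave 15 rises and 13 falls among 43 tested in EBC-1, 1 rise and 1 fall among 44 in PC-9, and 15 rises and 14 falls among 43 in HCC827, with medians of -0.02, 0.0003 and 0.12 on the log2 scale. These were 34.9% and 30.2% of the genes tested in EBC-1, against 23.1% and 21.6% of all genes, 2.27% each in PC-9, against 0.678% and 1.41%, and 34.9% and 32.6% in HCC827, against 17.2% and 20.7%. In EBC-1, NECTIN1, a nectin that joins cells at adherens junctions, had 8.47, 7.05 and 9.93 FPKM in nc and 19.8, 20.7 and 16.4 FPKM in shSYK cells. NECTIN1 rose by 1.08 ± 0.13 (SE) on the log2 scale, adjusted p = 0.000894. The polarity genes PARD6A and PRKCZ, partners in the PAR complex, went the other way there. PARD6A had 18.5, 15.4 and 19.03 FPKM in nc and 9.76, 10.6 and 6.42 FPKM in shSYK cells. In that line it fell by 0.93 ± 0.17 (SE) on the log2 scale, adjusted p = 0.00425. PRKCZ had 3.46, 3.83 and 3.54 FPKM in nc and 1.797, 1.74 and 1.46 FPKM in shSYK cells. It fell by 0.79 ± 0.09 (SE) on the log2 scale, adjusted p = 0.000683. CTNNAL1, an alpha-catenin-like gene, rose by 0.80 in EBC-1, from 24.5, 28.6 and 21.5 to 40.2, 42.8 and 48.6 FPKM, and by 0.77 in HCC827, from 21.8, 26.02 and 21.2 to 38.7, 39.3 and 41.8 FPKM. The largest change of the wider list was in a gap junction gene: GJB1, connexin 32, had 7.304, 7.999 and 7.85 FPKM in nc and 0.537, 0.421 and 0.492 FPKM in shSYK cells of HCC827. GJB1 fell by 2.56 ± 0.08 (SE) on the log2 scale, adjusted p = 1.77e-05. Also in HCC827, MPP5, a partner of CRB3 in the Crumbs complex, had 7.29, 7.196 and 5.95 FPKM in nc and 15.96, 14.1 and 12.5 FPKM in shSYK cells. In that line it rose by 0.96 ± 0.10 (SE) on the log2 scale, adjusted p = 0.000688. PLEKHA7, an adherens junction gene that binds p120 catenin, had 6.698, 7.29 and 6.61 FPKM in nc and 3.97, 4.37 and 4.08 FPKM in shSYK cells. It fell by 0.61 ± 0.07 (SE) on the log2 scale, adjusted p = 0.000651. Both also passed the test in EBC-1, where MPP5 rose by 0.47 and PLEKHA7 fell by 0.54 on the log2 scale (adjusted p = 0.0126 and 0.00493). In PC-9 the channel gene PANX1 had 12.3, 11.1 and 12.6 FPKM in nc and 18.2, 16.5 and 19.2 FPKM in shSYK cells. PANX1 rose by 0.55 ± 0.10 (SE) on the log2 scale, adjusted p = 0.0489. It rose also in the other two lines, by 0.54 in EBC-1 and 0.25 in HCC827 (adjusted p = 0.00403 and 0.0318). RAPGEF3, another Rap1 exchange factor, had 2.17, 1.84 and 2.02 FPKM in nc and 1.009, 0.826 and 0.685 FPKM in shSYK cells. In that line it fell by 0.71 ± 0.12 (SE) on the log2 scale, adjusted p = 0.0357.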

How the data were processed

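RNA was sequenced from nc and shSYK cells of EBC-1, PC-9 and HCC827, with 3 libraries per group. The study's methods state TRIzol extraction, an Illumina HiSeq system and the hg38 genome, the submitters' processing notes name CASAVA and HISAT2 and both hg38 and hg19, and the program that counted reads, its strand setting and the annotation are not given in the sources used here. The authors deposited FPKM for 58302 genes per line in 1 table per line, with gene coordinates that overlap those of GENCODE v44 (GRCh38) for 57511 of 57532 shared genes. Multiplied by gene length, 100% of the FPKM values in every library were whole multiples of a constant (tolerance 0.001), so reads per gene were recovered for depth, between 7920099 and 15729103 on genes, and for an alternative. Precision from counting follows the reads behind a value and covers counting error only.

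Within each line, log2(FPKM + 1) was compared with limma 3.58.1 in R 4.3.3 with the prior variance following mean expression, over genes with a mean of at least 1 FPKM, and an adjusted p (Benjamini-Hochberg over all genes tested) under 0.05 was called. A fold change on this scale understates the change of low genes. Differences between lines came from 1 limma fit of 6 groups, which shares 1 variance per gene over the lines. Ratios within libraries were tested as log2 ratios, with 1 added to each FPKM, with an exact two-sided permutation test. The limma script was tested on simulated data. The members and all gene lists were chosen with earlier results of these data known. Values per library are printed for members called in 2 or more lines, the 4 largest rises and falls per line, CDH1, members under the filter with a library at 5 FPKM or more in another line, up to 4 called genes of the wider list per line with the largest changes and no overlap, and SYK. The keratin, lung, leukocyte, fibroblast and endothelial markers were named singly after their values were seen, as were MPP5, PLEKHA7 and PANX1 outside the line that chose them. The settings varied were the pseudocount (0.1), the filter (none, or 5 FPKM), an equal sum per library (TPM), quantile normalization, no variance trend, all 18 libraries in 1 fit, a replicate block, limma-voom on the recovered reads, removal of trends on gene length and on length and GC content (lowess, span 0.3, GC content from GENCODE v44), and each library left out. Leaving out nc library 2 and shSYK library 3 of EBC-1 together was chosen after seeing the data. Tables, sequences and plots were handled in Python 3.11.15 with pandas 2.3.3, numpy 2.4.6, scipy 1.17.1 and matplotlib 3.10.9. Promoters came from RefSeq (GRCh38.p14).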

Additional observations from a re-analysis of the deposited data

Results flagged for a closer look

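The change on SYK knockdown differed between 2 lines, by the test of the difference itself in the limma fit of 18 libraries, for 28 of 108 comparisons of 36 members. Values are differences of log2 fold changes, and those of CDH2 rest on EBC-1 alone, the only line where it passed the filter. Between EBC-1 and HCC827 (EBC-1 minus HCC827) these were CDH2 (0.49, adjusted p = 0.00163), CLDN1 (-1.76, adjusted p = 5.45e-07), CLDN12 (0.82, adjusted p = 0.0158), CRB3 (0.55, adjusted p = 0.00661), CTNND1 (0.78, adjusted p = 7.05e-06), DSC2 (0.77, adjusted p = 0.000392), DSG2 (0.71, adjusted p = 0.0215), DSP (0.58, adjusted p = 0.0058), LLGL2 (0.55, adjusted p = 0.0391), MARVELD2 (0.39, adjusted p = 0.0423), PKP3 (0.92, adjusted p = 0.011), PPL (0.34, adjusted p = 0.0122) and TJP3 (0.87, adjusted p = 0.0109), with 13 of 36 members.

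Between EBC-1 and PC-9 (EBC-1 minus PC-9) they were CDH2 (0.50, adjusted p = 0.00176), CDH3 (-1.18, adjusted p = 3.19e-05), CLDN12 (0.67, adjusted p = 0.0487), CLDN7 (-0.47, adjusted p = 0.0189), CTNND1 (0.28, adjusted p = 0.0243) and PPL (0.63, adjusted p = 0.000195).

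Between PC-9 and HCC827 (PC-9 minus HCC827) they were CDH3 (0.82, adjusted p = 0.0013), CLDN1 (-1.41, adjusted p = 1.44e-05), CLDN7 (0.49, adjusted p = 0.0253), CRB3 (0.77, adjusted p = 0.00119), CTNND1 (0.50, adjusted p = 0.000928), DSC2 (0.52, adjusted p = 0.0172), F11R (0.37, adjusted p = 0.0298), RAPGEF5 (0.50, adjusted p = 0.0402) and TJP3 (0.97, adjusted p = 0.0116). Differences that passed under every alternative and with each library left out were 8 between EBC-1 and HCC827 (CLDN1, CLDN12, CRB3, CTNND1, DSC2, DSP, PKP3 and TJP3), 2 between EBC-1 and PC-9 (CDH3 and PPL) and 5 between PC-9 and HCC827 (CDH3, CLDN1, CRB3, CTNND1 and TJP3). Groups of 3 libraries are too small for a test of single outlying libraries.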

How the results depend on the processing

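Of the calls among the members, 9 of 15 in EBC-1, 0 of 1 in PC-9 and 13 of 24 in HCC827 passed under every alternative and with each library left out. Rises and falls numbered 6 and 9 in EBC-1, 0 and 1 in PC-9 and 2 and 22 in HCC827. With the replicate number as a block they were 5 and 8, 0 and 1, and 2 and 18. The block changed the call of DSG2 and ST14 in EBC-1 (adjusted p = 0.0529 and 0.0599) and of DSC2, MARVELD2, SPINT2 and RAPGEF5 in HCC827 (0.06, 0.0643, 0.0827 and 0.0672). Same-numbered nc and shSYK libraries deviated together with r = 0.034, -0.165 and -0.219 in EBC-1, -0.053, 0.325 and -0.121 in PC-9 and 0.002, 0.063 and 0.024 in HCC827. Pairs with different numbers ranged from -0.36 to 0.383, both in PC-9. The labels do not say whether same-numbered libraries shared a culture or batch, and these values cannot settle it.

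With length and GC trends removed, 14 members fell in EBC-1 (21.2% of all genes did), 2 rose and 2 fell in PC-9 (3.11% and 4.44% did, 376 and 537 genes), and 26 members differed between lines in place of 17, where 38.4% of all genes did in place of 29.4%. There EVPL in EBC-1 turned from -0.02 to 0.174 (adjusted p = 0.0391). With an equal sum per library the median of the members was 0.04 in EBC-1 and -0.214 in HCC827, and 1 rose in PC-9. With quantile normalization 1 rose and 2 fell in PC-9. The fit of all 18 libraries gave 3 rises and 4 falls in PC-9 and 1 rise in HCC827, and no filter and a filter at 5 FPKM each gave 1 rise in HCC827. With limma-voom the CDH2 difference, EBC-1 minus HCC827, was -0.739 (adjusted p = 0.59). The cause was not tested. With each library left out in turn, rises ranged from 0 to 1 and falls from 0 to 1 in PC-9, the median in PC-9 from -0.076 to 0.034, SYK in PC-9 from -1.347 to -1.177, and rises in HCC827 from 1 to 2. Over all genes in PC-9, calls ranged from 5 rises and 2 falls without shSYK library 1 to 660 and 851 in the fit of all 18 libraries, against 82 and 171. Ratios with a member near 0 (DSG3, DSC3, PKP1, and CDH2 outside EBC-1) were not run. Calls also ended under other settings than leaving out a library for ST14 in EBC-1 (adjusted p up to 0.176), PKP3 in EBC-1 (0.0608, no filter), and DSC2 (up to 0.132), MARVELD2 (up to 0.0916), RAPGEF5 (up to 0.113), PARD6B (up to 0.157), SPINT2 (up to 0.855), CLDN3 (0.178), SCRIB (0.254), SPINT1 (0.0833), CDH3 (0.0712), DSG2 (0.111) and PKP3 (0.0654) in HCC827. Depth limits CDH2 outside EBC-1, where it had at most 4 reads per library.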
